A study of Mus musculus with 9 samples.

Results

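Proteasome subunit genes were taken as all genes of the array annotation whose symbol begins with Psma, Psmb, Psmc, Psmd or Psme, leaving out the immunoproteasome genes Psmb8 and Psmb9. The rule gave 44 genes. Of these, 42 had a probe set listing no other gene and were tested among 18193 genes, while Psme2 and Psme2b share their only probe set and were not analysed here. Liver RNA came from male mice, 14 weeks old, and was read on 4 arrays of db/db mice (BKS.Cg-Leprdb, mutant in the leptin receptor, by then obese and diabetic with a fatty liver) and 5 arrays of littermates with the intact receptor (C57BL/KSlepr+/+, BKS). All mice were fed standard chow. Nothing in the labels ties samples to separate mice. The p-values therefore reflect only how much these samples vary, which may be technical.

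The proteasome degrades proteins that carry ubiquitin chains. Its core particle stacks outer rings of alpha subunits (Psma genes), which gate the entry, on inner rings of beta subunits (Psmb genes), some of which cut peptide bonds. The 19S regulatory particle caps the core: ATPases (Psmc genes) unfold the substrate, and non-ATPase subunits (Psmd genes) bind and remove ubiquitin. Activators (Psme genes) open the core without ubiquitin. In mammals the transcription factor NRF1, encoded by Nfe2l1, is known to raise proteasome genes together when the proteasome is inhibited.

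The arrays' median intensities lay between 67.4 and 110.8, and the precision is limited by the number of arrays. Control probe sets for 18S ribosomal RNA split the arrays in 2: 4 arrays (BKS 4, BKS 5, db/db 3 and db/db 4) read 1873 to 19771 and the other 5 read 22.2 to 43.5. Both sets hold both genotypes, and a fit that blocks on this split is cited where it changes a call. The ratio of 3' to 5' beta-actin control signal is a sign of RNA or labelling quality. It was 3.18 to 5.93 on the 4 arrays high in 18S. On the others it was 3.32 in BKS 1 and 1.62 to 1.80 in the rest. BKS 1 also had the highest median intensity. All 6 hepatocyte markers were measured, at a summed log2 level of at least 17.85 on every array, with none past the test (limma, 1 higher and 1 lower at an unadjusted p under 0.05). A lower share of a cell type and less RNA per cell cannot be told apart in whole liver.

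The median difference in proteasome subunit RNA between db/db and BKS liver was small. Of the 42 genes, 1 rose and none fell, where 2.88% of all genes rose and 2.61% fell, 5.49% in all (limma with Benjamini-Hochberg adjustment over all genes, adjusted p under 0.05). At an unadjusted p under 0.05 there were 6 higher and 3 lower members, beside 8.75% and 8.9% of all genes. The median fold over members was 1.04, with 22 positive and 20 negative differences, and the median over all genes was 0.998. The 95% interval of the difference lay within 1.5-fold in either direction for 25 members and within 2-fold for 39, against 17.6% and 48.5% of all genes. The 3 genes with wider intervals were Psma8, Psmb11 and Psmc3ip, all dim. The median difference between genotypes, in size, was 0.16 on the log2 scale for members and 0.29 over all genes.

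The probe sets used for 35 members lay among the brightest 20% of genes. Among those bright genes 8.08% of genes rose and 7.50% fell (limma, same threshold), the median SD within groups was 0.20 in db/db and 0.21 in BKS, and 51.7% of genes had an interval within 1.5-fold. In size, the median difference was 0.24 on the log2 scale over the bright genes and 0.15 for the 35 members among them. Those 35 members had 1 rise and no fall, with median SDs of 0.19 and 0.21, and 23 intervals (65.7%) within 1.5-fold. These shares are descriptions, and members of a complex are not independent observations.

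**Figure D1:**
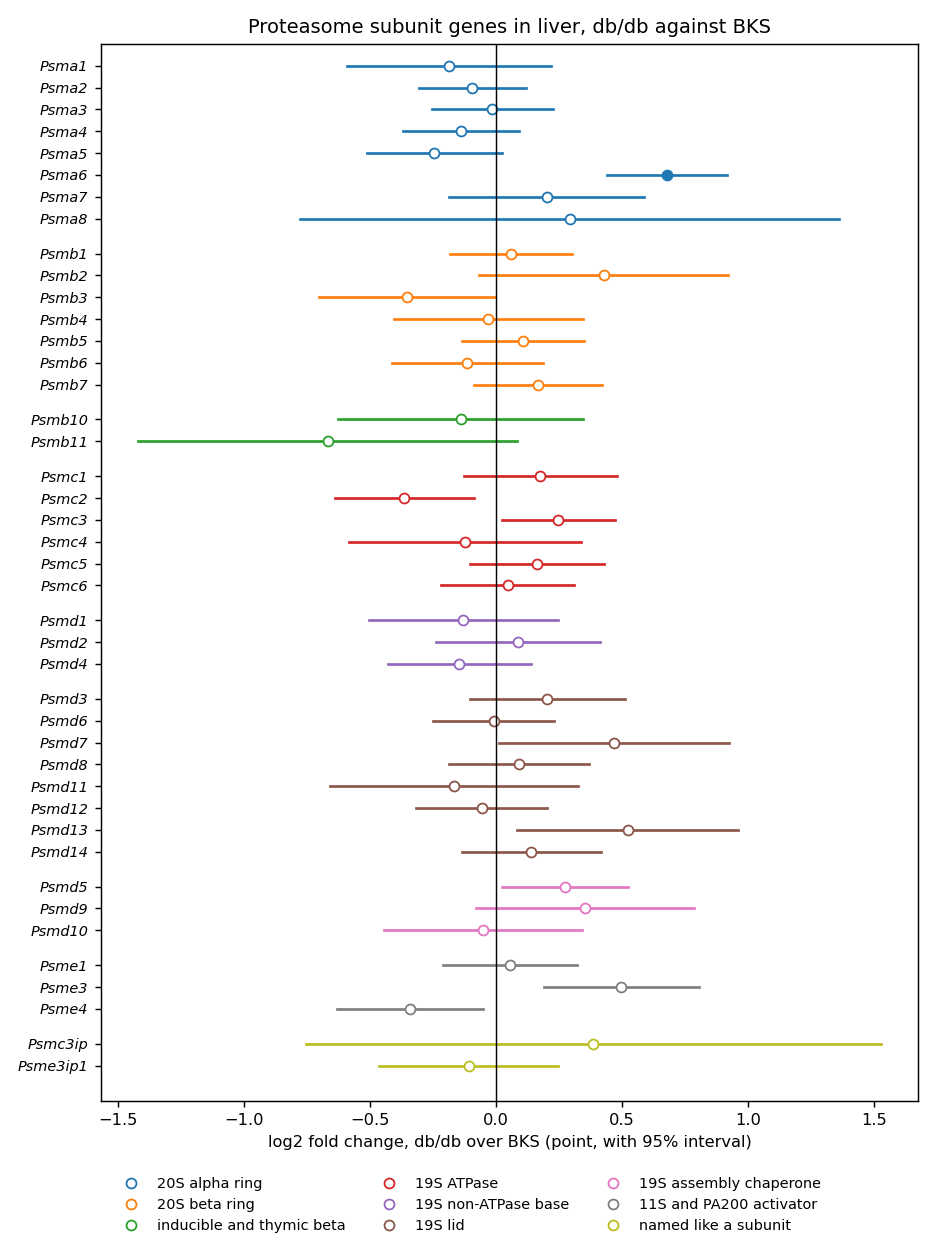
Log2 fold change of db/db over BKS liver for the 42 tested genes, grouped by place in the proteasome, with 95% intervals from limma. A filled point marks an adjusted p under 0.05. Psma6 at 0.68 is the only filled point, and most intervals cross 0.

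The median over members of the signal minus each gene's mean over 9 arrays was 0.03, 0.07, -0.01 and 0.00 in db/db 1 to 4, against -0.11, 0.03, -0.05, -0.03 and -0.03 in BKS 1 to 5. Between 18 members (BKS 1) and 25 members (db/db 2) of 42 stood above their own mean in an array. BKS 1 was the lowest array and db/db 2 the highest, and BKS 2 lay above 3 of the db/db arrays.

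**Figure D2:**
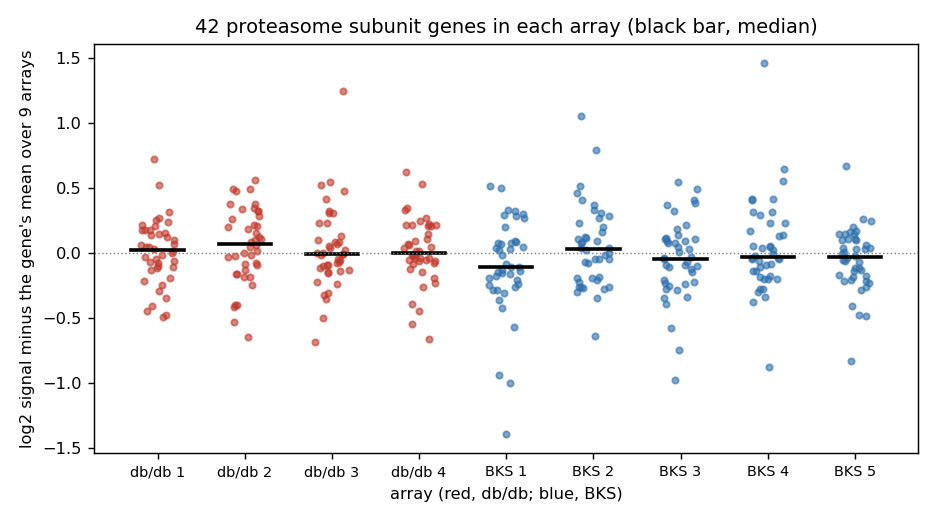
Normalized log2 signal of each of the 42 genes minus that gene's mean over the 9 arrays, by array, with black bars for medians. The medians run from -0.11 in BKS 1 to 0.07 in db/db 2, and the clouds of all arrays overlap.

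Of the 8 alpha subunit genes, 1 rose and none fell (limma, 1 higher and none lower at an unadjusted p under 0.05). The gene that rose was Psma6, which encodes a structural subunit of the outer ring. Its brightest probe set read 13.19, 13.33, 13.40 and 13.51 on the normalized log2 scale in db/db 1 to 4, against 12.83, 12.64, 12.59, 12.84 and 12.50 in BKS 1 to 5. Every db/db array lay above every BKS array. The difference was 0.68 (SE 0.11, 95% interval 0.44 to 0.92), a 1.60-fold rise with an adjusted p of 0.00257 (limma). Within the 18S sets it was 0.57 (low) and 0.79 (high), and the call held with each array left out in turn (adjusted p from 0.00378 to 0.0124).

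That rise was carried by 1 of 2 bright probe sets. The called one has a name ending in x_at, by which Affymetrix marks probes that may also bind other transcripts. The other, with no such mark, read 12.86, 12.57, 12.74 and 12.91 in db/db against 13.15, 12.53, 13.05, 13.11 and 12.90 in BKS. There the groups overlapped, and the difference was -0.18 (SE 0.14, adjusted p = 0.669 over all probe sets, limma). A dimmer x_at probe set was at 0.48 (SE 0.27), and the dimmest probe set at -0.81 (SE 0.40). Averaged over its 4 probe sets Psma6 stood at 0.04 (adjusted p = 0.947), and the call was also lost when arrays were centred on their median in place of quantile normalization (0.78, adjusted p = 0.0965) and in a fit of the low 18S arrays, normalized on their own (0.53, adjusted p = 0.0849). Probe sequences were not available here, and which transcripts the called probe set reads was not tested.

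None of the other alpha subunits passed on its brightest probe set. Psma1, Psma2, Psma3, Psma4 and Psma5 had differences from -0.25 (Psma5) to -0.01 (Psma3), and Psma7 was at 0.20 (SE 0.18, adjusted p = 0.636). Psma7 also has a second probe set of similar brightness, which read 12.31, 12.24, 12.14 and 12.22 in db/db against 11.72, 11.85, 11.42, 11.75 and 11.40 in BKS. All db/db arrays lay above all BKS arrays there, and that probe set passed in the fit over probe sets (0.60, SE 0.13, adjusted p = 0.0197, limma). Psma8, the subunit that replaces Psma7 in male germ cells, was dim on its only probe set (6.04 ± 0.62 in db/db and 5.75 ± 0.94 in BKS, SD, n = 4 and 5).

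None of the 7 constitutive beta subunit genes passed (limma, none higher and 1 lower at an unadjusted p under 0.05). Their differences ran from -0.35 (Psmb3) to 0.43 (Psmb2), with a median of 0.06. The catalytic ones come first.

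Psmb5, whose product cuts after hydrophobic residues, read 12.95, 13.02, 12.66 and 12.85 in db/db against 12.85, 12.89, 12.53, 12.77 and 12.77 in BKS. The groups overlapped and the difference was 0.11 (95% interval -0.14 to 0.35, adjusted p = 0.705, limma). Psmb6, which carries the caspase-like site, read 12.12, 12.07, 12.11 and 12.10 in db/db against 12.03, 12.48, 12.07, 12.58 and 11.94 in BKS. The db/db arrays were nearly equal and sat inside the BKS range, with a difference of -0.12 (95% interval -0.42 to 0.19). Psmb7, with the trypsin-like site, read 14.27, 14.42, 14.02 and 14.04 in db/db against 13.90, 14.21, 14.13, 13.89 and 13.98 in BKS. These groups also overlapped, with a difference of 0.17 (95% interval -0.09 to 0.42).

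Among the beta subunits without a catalytic site, Psmb1 and Psmb4 were at 0.06 and -0.03. The other bright probe set of Psmb4, an x_at one, was at -0.54 (SE 0.33). Psmb2 stood at 0.43 (SE 0.23, adjusted p = 0.370), with 0.83 within the low 18S set, -0.03 within the high set, and BKS 1 at 10.91 below the other BKS arrays (11.64 to 12.14). Psmb3 was at -0.35 (SE 0.16, adjusted p = 0.278). Blocked on 18S, Psmb3 was called lower (-0.39, adjusted p = 0.0454), while its other bright probe set was at -0.04.

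Psmb10 encodes an interferon-inducible beta subunit that takes the place of the Psmb7 product in immunoproteasomes. It read 11.30, 11.34, 10.54 and 11.44 in db/db against 11.15, 12.02, 11.01, 11.03 and 11.26 in BKS. The arrays db/db 3 and BKS 2 stood apart from the rest of their groups, and the difference of -0.14 (SE 0.23, adjusted p = 0.821, limma) turned to 0.06 without db/db 3 and to 0.04 without BKS 2. The immunoproteasome partners Psmb8 and Psmb9 were at -0.42 (SE 0.29) and -0.69 (SE 0.37), and neither passed. Psmb11, the beta subunit of the thymic proteasome, was dim (5.30 ± 0.17 in db/db and 5.97 ± 0.50 in BKS, SD, n = 4 and 5).

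The 6 ATPase genes of the 19S particle also gave no call (limma, 1 higher and 1 lower at an unadjusted p under 0.05). The largest difference was that of Psmc2, at 12.46 ± 0.26 in db/db and 12.82 ± 0.13 in BKS (SD, n = 4 and 5), 1.29-fold lower with an adjusted p of 0.136. All its db/db arrays lay below all BKS arrays. Blocked on 18S it was called lower (-0.39, adjusted p = 0.0479), with -0.58 within the low set and -0.16 within the high set. The probe set behind this value is another x_at set, and an equally bright one without that mark was at 0.08 (SE 0.11).

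Psmc3, with the highest difference among the ATPases, was at 0.25 (SE 0.10, adjusted p = 0.231), and Psmc1, Psmc4 and Psmc5 were at 0.17, -0.13 and 0.16. Psmc6 was at 0.05 on its brightest probe set (SE 0.12). A second bright probe set of Psmc6 read 11.02, 10.57, 10.65 and 11.01 in db/db against 12.16, 11.27, 11.88, 11.46 and 11.28 in BKS. Every db/db array lay below every BKS array, and it passed in the fit over probe sets (-0.80, SE 0.19, adjusted p = 0.0401, limma). Its name ends in s_at, by which Affymetrix marks probes shared by several transcripts. The third and dimmest probe set of Psmc6 was at -1.12 (SE 0.39, adjusted p = 0.185), so 2 of its 3 probe sets had a negative difference.

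Of the non-ATPase genes of the base, Psmd1 and Psmd2, the large scaffold subunits, were at -0.13 and 0.09. Psmd4, a ubiquitin receptor, was at -0.15 (SE 0.13), and its other bright probe set was at 0.13 (SE 0.13). The 8 lid genes had a median difference of 0.11 and no call (limma, 2 higher and none lower at an unadjusted p under 0.05). Psmd14, the deubiquitinase that strips ubiquitin chains from substrates, was at 0.14 (95% interval -0.14 to 0.41). Psmd13 stood at 10.89 ± 0.31 in db/db and 10.37 ± 0.39 in BKS (SD, n = 4 and 5), 1.44-fold with an adjusted p of 0.186. Its difference was 0.75 within the low 18S set and 0.17 within the high set, and a dimmer probe set, an x_at one whose groups did not overlap, was at 0.64 (adjusted p = 0.0576 over probe sets, limma). The other lid genes ran from -0.17 (Psmd11) to 0.47 (Psmd7, adjusted p = 0.271, with BKS 1 far below its group). Psmd11 was read from an s_at probe set, and its other bright ones were at -0.05 (SE 0.16) and 0.43 (SE 0.18). Psmd3 was at 0.20, Psmd6 at -0.01, Psmd8 at 0.09 and Psmd12 at -0.06.

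Psmd5, Psmd9 and Psmd10 encode chaperones that help to assemble the 19S base and are absent from the finished particle. Psmd5 stood at 10.79 ± 0.14 in db/db and 10.52 ± 0.06 in BKS (SD, n = 4 and 5), 1.21-fold with an adjusted p of 0.230 (limma), and its groups did not overlap. Psmd10 was at -0.05. Psmd9 was at 0.35 (SE 0.20, adjusted p = 0.408) on its brightest probe set. A dimmer one read 7.67, 7.86, 8.31 and 8.47 in db/db against 6.15, 7.39, 6.29, 6.72 and 5.52 in BKS and passed over probe sets (1.67, SE 0.39, adjusted p = 0.0336).

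**Figure D3:**
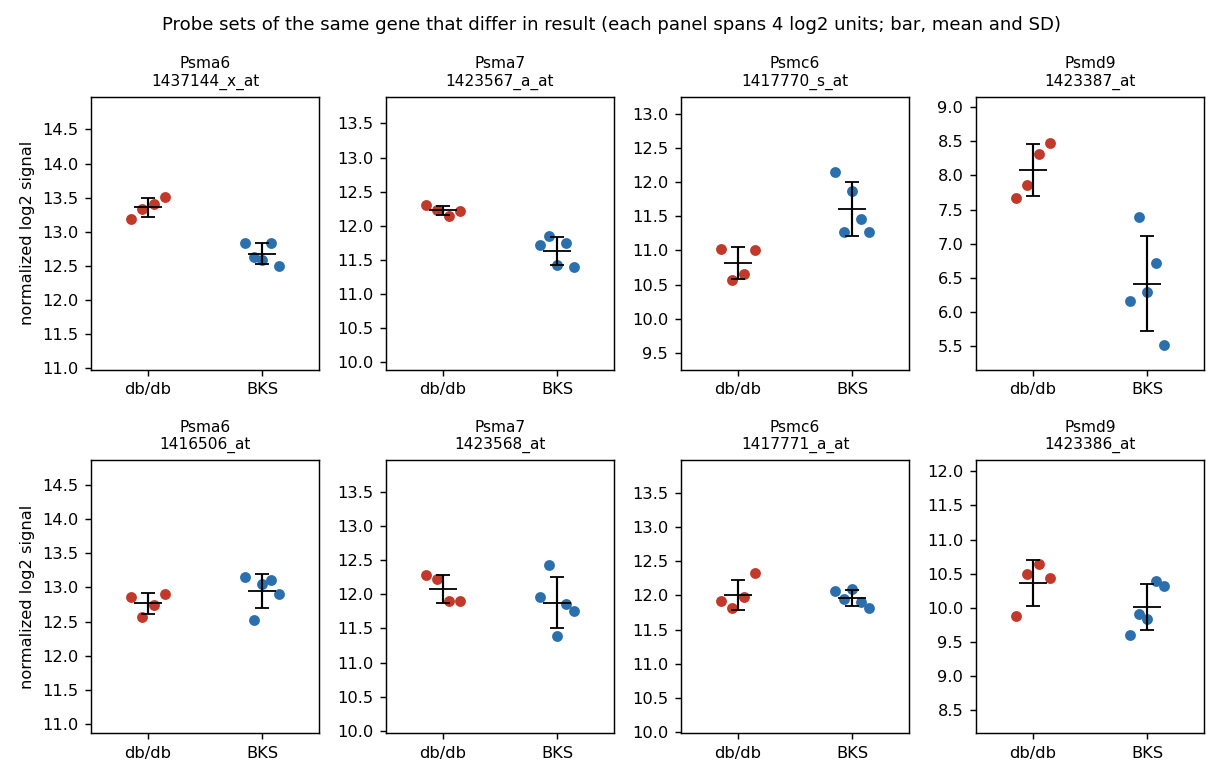
Normalized log2 signal of 2 probe sets for each of 4 genes, with 4 db/db and 5 BKS arrays as points and bars for the mean and SD; every panel spans the same range. The upper probe sets separate the genotypes and the lower ones, of the same genes, overlap.

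Across all 88 member probe sets, 3 were called higher (of Psma6, Psma7 and Psmd9) and 1 lower (of Psmc6), where 1.58% and 1.19% of all 45037 probe sets were called (limma). Of 11 members with more than 1 probe set among the brightest 10%, 7 had probe sets of opposite sign. The share over all genes was not computed, so this count has no baseline. The spread between bright probe sets of one gene ran from 0.16 (Psma5) to 0.86 (Psma6) on the log2 scale. These 2 counts and the genes with called probe sets were chosen after the values were seen.

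None of the 3 activator genes passed (limma, 1 higher and 1 lower at an unadjusted p under 0.05). Psme3 encodes the nuclear activator PA28 gamma, and Psme4 the activator PA200, which acts on histones. Psme3 read 10.01, 10.31, 10.07 and 10.04 in db/db against 9.85, 9.65, 9.49, 9.64 and 9.42 in BKS. All db/db arrays lay above all BKS arrays, with means of 10.11 ± 0.14 in db/db and 9.61 ± 0.17 in BKS (SD, n = 4 and 5). The difference of 0.50 (SE 0.14, 95% interval 0.19 to 0.80) missed the threshold (adjusted p = 0.0621, limma). Within the 18S sets it was 0.50 (low) and 0.52 (high). It was called higher with the 18S block (0.51, adjusted p = 0.0300), with dim genes left out (adjusted p = 0.0413) and without BKS 1 (adjusted p = 0.0495). It was 0.25 with the mean of probe sets (adjusted p = 0.624) and 0.45 with the replicate block (adjusted p = 0.125). Its second probe set of like brightness was at 0.33 (SE 0.17).

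Psme4 read 12.64, 12.43, 12.74 and 12.76 in db/db against 12.91, 12.64, 13.32, 12.96 and 13.08 in BKS. Only BKS 2 reached into the db/db range. The means were 12.64 ± 0.15 in db/db and 12.98 ± 0.25 in BKS (SD, n = 4 and 5), and the difference was -0.34 (SE 0.13, adjusted p = 0.189, limma). Its other bright probe sets were at -0.02 and 0.19. Psme1 encodes a subunit of the interferon-inducible activator PA28. It read 12.99, 12.78, 12.59 and 12.70 in db/db against 12.58, 12.90, 12.48, 12.70 and 12.90 in BKS, with a difference of 0.06 (95% interval -0.21 to 0.32).

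Of members whose groups did not overlap, 3 had db/db above (Psma6, Psme3 and Psmd5) and 1 below (Psmc2), beside 4.71% and 4.41% of all genes, 9.12% in all. With the 18S block 2 members were called higher and 2 lower (Psma6 and Psme3, Psmb3 and Psmc2), beside 4.1% and 4.14% of all genes (limma). By name only, the rule also took in Psmc3ip, a meiotic recombination factor that binds an ATPase subunit, and Psme3ip1, a protein that binds the Psme3 product. They were at 0.39 (SE 0.53) and -0.11 (SE 0.16), and leaving them out left the member median at 1.04-fold.

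Among genes that regulate or assemble the proteasome, 2 rose, Uchl5 and Psmf1. Of 18 measured (20 listed), 2 rose and none fell (limma, 6 higher and 1 lower at an unadjusted p under 0.05), and 14 differences were positive, with a median of 0.22. Over all genes 2.88% rose and 2.61% fell, 8.75% and 8.9% were higher and lower at an unadjusted p under 0.05, and 49.7% of differences were positive. Uchl5 encodes a deubiquitinase that docks on the 19S particle and also on a chromatin remodelling complex. It read 11.01, 10.87, 10.96 and 11.06 in db/db against 10.32, 10.04, 10.11, 10.60 and 10.32 in BKS. The groups did not overlap, and it rose 1.62-fold (log2 0.70, SE 0.13, adjusted p = 0.00775).

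Psmf1 encodes PI31, a protein that inhibits the isolated core particle. It read 10.34, 10.41, 10.53 and 10.61 in db/db against 9.66, 10.02, 9.79, 9.78 and 9.98 in BKS. These groups did not overlap either, and it rose 1.54-fold (log2 0.63, SE 0.13, adjusted p = 0.0134). Its 4 probe sets ran from -0.50 to 0.63 and the dimmer set of Uchl5 was at 0.30, and both calls were lost with the mean of probe sets (0.25 and 0.50, adjusted p = 0.665 and 0.276) and with eBayes without a trend (adjusted p = 0.0623 and 0.0552), the value of Psmf1 given first. That of Psmf1 was also lost with median centring (0.69, adjusted p = 0.0780), in the low 18S arrays alone (0.54, adjusted p = 0.176) and in the high ones alone (0.71, adjusted p = 0.0889). That of Uchl5 was lost in the high 18S arrays alone (0.57, adjusted p = 0.149) and with the probe set of largest variance (0.30, adjusted p = 0.842). Whether the list differs from the subunits was not tested.

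Nfe2l2, which encodes NRF2, a factor that switches on antioxidant genes and some proteasome genes, read 11.88, 11.62, 11.27 and 11.99 in db/db against 11.19, 11.01, 11.52, 10.49 and 10.46 in BKS. On this probe set the groups overlapped through db/db 3 and BKS 3. The difference of 0.75 (SE 0.22) had an adjusted p of 0.0684 (limma), and 0.0126 when blocked on 18S. A dimmer probe set of Nfe2l2 read 7.24 to 9.45 in db/db and 4.64 to 6.95 in BKS, without overlap. Its difference was 2.02 (SE 0.54, adjusted p = 0.0657 over all probe sets, limma). Txnl1, a thioredoxin-like protein bound to the 19S particle, was at -0.49 (SE 0.15, adjusted p = 0.0840, and 0.0451 with the block). The other probe sets of Txnl1 ran from -0.36 to 0.97, and the brightest of those was at -0.08 (SE 0.19). Nfe2l1, shown because it encodes NRF1 and picked after its values were seen, was at 0.50 (SE 0.18, adjusted p = 0.139). The chaperones of core assembly Psmg1, Psmg2, Psmg3 and Psmg4 were at 0.00, -0.10, 0.42 and 0.36, and Pomp, the maturation factor, at -0.18.

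**Figure D4:**
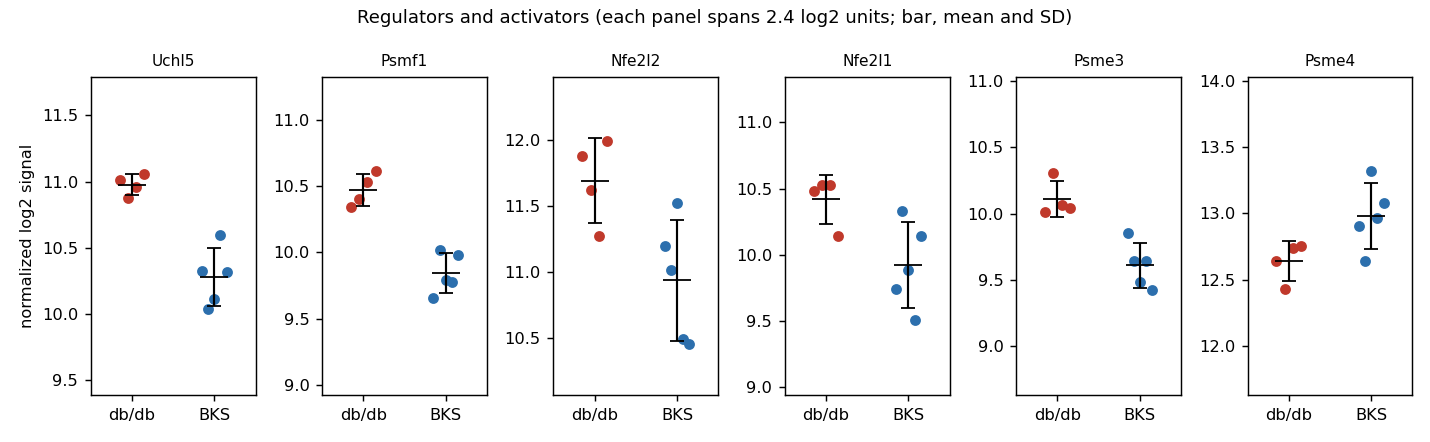
Normalized log2 signal of 4 regulator genes and 2 activator genes in 4 db/db and 5 BKS arrays, with bars for the mean and SD; every panel spans the same range. On the brightest probe set of each gene, Uchl5, Psmf1 and Psme3 have groups that do not overlap, and Nfe2l2, Nfe2l1 and Psme4 have groups that do.

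Since NRF1 and NRF2 bind antioxidant response elements, the promoters of members were searched for the core of that element, TGACNNNGC, and for the NF-Y box CCAAT, on both strands, in RefSeq windows (GRCm38.p6) from 250 bases before to 50 after each start. Windows were found for 35 of the 42 members, 38 in all. The antioxidant core was in 6 windows (15.8%, and 12.4% of all 32851 windows) and CCAAT in 15 (39.5%, and 37.4%). No member window held both, against 4.37% of all windows. The 6 genes with the core (Psmb5, Psmb6, Psmc6, Psmd9, Psmd12 and Psme4) had differences from -0.34 to 0.35, and the other 29 from -0.67 to 0.68. A match is a string of letters, not a shown binding site.

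The windows of the catalytic genes Psmb5 and Psmb6 are printed because each holds the antioxidant core, and both windows of Psma6 because it is the only member past the test. They read 5' to 3' on the gene's strand, with either motif in capitals. Psmb5 (chr14:54617946-54618245, minus strand) has the core on its own strand from base -47 and Psmb6 (chr11:70525107-70525406, plus strand) from base -9. Psma6 (plus strand) has CCAAT, once on each strand, in the window chr12:55383972-55384271 and neither motif in the window chr12:55398575-55398874.
Psmb5: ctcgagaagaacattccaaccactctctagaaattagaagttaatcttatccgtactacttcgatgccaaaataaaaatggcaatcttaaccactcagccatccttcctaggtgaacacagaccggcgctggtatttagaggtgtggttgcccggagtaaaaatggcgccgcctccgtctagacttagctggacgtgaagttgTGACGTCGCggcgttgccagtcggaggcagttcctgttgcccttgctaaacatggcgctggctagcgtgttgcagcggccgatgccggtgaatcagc
Psmb6: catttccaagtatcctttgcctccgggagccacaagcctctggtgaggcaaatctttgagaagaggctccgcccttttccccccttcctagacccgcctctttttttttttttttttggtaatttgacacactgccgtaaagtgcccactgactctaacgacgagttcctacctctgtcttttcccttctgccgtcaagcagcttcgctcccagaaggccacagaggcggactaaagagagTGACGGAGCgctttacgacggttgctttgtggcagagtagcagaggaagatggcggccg
Psma6, first start: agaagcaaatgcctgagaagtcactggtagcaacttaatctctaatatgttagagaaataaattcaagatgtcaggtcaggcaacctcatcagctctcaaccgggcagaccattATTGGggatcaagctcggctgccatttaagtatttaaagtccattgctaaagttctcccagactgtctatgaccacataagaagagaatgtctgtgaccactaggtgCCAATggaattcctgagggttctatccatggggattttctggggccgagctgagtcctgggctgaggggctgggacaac
Psma6, second start: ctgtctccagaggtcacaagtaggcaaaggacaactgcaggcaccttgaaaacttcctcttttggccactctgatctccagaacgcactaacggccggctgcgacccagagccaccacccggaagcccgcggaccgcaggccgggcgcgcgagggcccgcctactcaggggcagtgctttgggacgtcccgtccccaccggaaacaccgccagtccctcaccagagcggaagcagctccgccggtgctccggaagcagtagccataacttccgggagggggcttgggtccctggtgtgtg

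Genes that supply ubiquitin or carry substrates to the proteasome gave no call. Of 13 measured (20 listed), none passed (limma, 3 higher and 1 lower at an unadjusted p under 0.05). Over all genes, 8.75% and 8.9% were higher and lower at that unadjusted p. For 2 of the 13, Ube2d3 and Ufd1, all db/db arrays lay above all BKS arrays, beside 4.71% of all genes. Ube2d3, a ubiquitin-conjugating enzyme, read 13.95, 13.68, 13.78 and 13.78 in db/db against 13.41, 13.40, 13.39, 13.44 and 13.62 in BKS. Its groups did not overlap, and the difference was 0.35 (SE 0.10, adjusted p = 0.0604, and 0.0419 with the 18S block). Ubqln4, a shuttle protein, was at 0.43 (SE 0.17, adjusted p = 0.183), and Vcp, the segregase that pulls ubiquitinated proteins from complexes, at -0.11.

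Interferon-inducible genes of antigen processing, which in immune activation rise with Psmb10 and Psme1, had 9 of 12 negative differences (13 listed). None passed the test (limma, 1 higher at an unadjusted p under 0.05), and the 12 include Psmb8 and Psmb9. Of all 18193 genes, 9145 had a negative difference, and 8.75% and 8.9% were higher and lower at that unadjusted p. Tap1, a subunit of the peptide transporter, was at -0.62 (SE 0.29, adjusted p = 0.288). Gbp2, a guanylate-binding protein, was at 1.70 (SE 0.60, adjusted p = 0.139). Immune cell markers also stood mostly lower: 7 of 8 had a negative difference, with none past the test (limma, 2 at an unadjusted p under 0.05), and their summed level was 11.61 to 12.75 on the log2 scale in db/db and 12.27 to 13.59 in BKS. Of the other markers, only Alas2, of the red cell lineage, passed (0.434-fold, SE 0.25 on the log2 scale, adjusted p = 0.0113, limma). Hba-a1, the other red cell gene measured, was dim and at 0.07 (SE 0.50, adjusted p = 0.968, limma). The part of these markers in the levels of Psmb10 and its partners was not tested.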

How the data were processed

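Biotin-labelled liver RNA of 4 db/db and 5 BKS samples was read on Affymetrix arrays, per the labels' protocols. The authors deposited 1 linear intensity per probe set and array, and the sources used here do not name the software. On every array the deposited intensities had a mean, trimmed by 2% at both ends, of 500.0. No detection calls were given. The 64 control probe sets were set aside, and log2(intensity + 16) was put through quantile normalization (limma 3.58.1, R 4.3.3).

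Of the probe sets, 34945 had 1 gene symbol, 932 several, and 9160 were not listed. A gene was read from its brightest probe set over all arrays, the same in every alternative except those on that choice, and each was tested with limma (eBayes with an intensity trend, two-sided, genotype only, Benjamini-Hochberg over 18193 genes, threshold 0.05). All 42 tested members matched RefSeq by gene identifier. A second fit took every probe set. "Rose", "fell" and "called" refer to that threshold, and fold changes are on the log2(intensity + 16) scale, which understates changes of dim genes. Steps were tested on simulated data.

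Values per array were given for called members, the catalytic subunits and the activators, and means for the 5 members nearest to the threshold; means of the dim Psma8 and Psmb11 were added. Of each list of related genes, those past the test and the 2 nearest to it were named. Psmc3, Alas2, Hba-a1, Ufd1, Vcp, Nfe2l1 and the genes for core assembly were added after their values were seen. Members and lists were chosen with earlier results of these data known, as was the 18S split.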

Additional observations from a re-analysis of the deposited data

Results flagged for a closer look

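In 84 groups (42 members, 2 genotypes) 4 single arrays stood far from the rest of their group by Dixon's ratio, and chance gives about 1 in 20. Psmb10 was at 10.54 in db/db 3 (others 11.30 to 11.44) and at 12.02 in BKS 2 (others 11.01 to 11.26). Psmd2 was at 13.36 in BKS 2 (others 12.56 to 12.79). Psmd7 was at 9.73 in BKS 1 (others 10.59 to 10.86).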

How the results depend on the processing

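The member median stayed between -0.05 and 0.14 on the log2 scale in all alternatives run (0.05 as reported), and from 0.01 to 0.08 with 1 array left out. The count of members higher was 0 with median centring, with the mean of probe sets and in the low 18S arrays alone. It was 2 with dim genes left out and with the 18S block (Psma6 and Psme3 in both), and the block also gave 2 lower. With the probe set of largest variance it was 2 as well, but these were Psma7 and Psmd9, without Psma6. Over all genes, higher and lower calls numbered 323 and 212 with median centring, 255 and 212 without the eBayes trend, 214 and 220 in the low and 240 and 225 in the high 18S arrays alone. Lower calls were 272 with the mean of probe sets, 262 with the probe set of largest variance and 754 with the block. Of the regulatory and ubiquitin genes, 1 was higher with median centring and in the low 18S arrays alone. None was with the probe set of largest variance or without the trend, and with the block 4 were higher and 1 lower. With the mean of probe sets 2 were higher, and in the high 18S arrays alone 2, in both settings genes other than Uchl5 and Psmf1.

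With 1 array left out, 1 to 2 members were higher and none lower, 2 to 4 regulatory and ubiquitin genes were higher (4 without BKS 3), and over all genes 309 to 517 were higher and 284 to 435 lower, the fewest without db/db 3 (309 and 284). Psme3 was the member gained without BKS 1 (adjusted p = 0.0495). Uchl5, Psmf1 and Psma6 kept their calls in all 9 of these fits.

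Of the 42 members, 7 turned sign with the probe set of largest variance and 8 in the high 18S arrays alone. With median centring 5 turned, and in the low 18S arrays alone 5. The turns named next are those of genes followed singly. With the probe set of largest variance they were Psma6 (-0.81), Psme3 (-0.071), Psmc2 (0.047) and Psmf1 (-0.50), where another probe set was read. In the high 18S arrays alone Psmb5 was at -0.017 and Psme1 at -0.16. With 1 array left out, Psme1 ran from -0.020 (without db/db 1) to 0.11 and was at -0.0019 without BKS 3. Psmb10 ran from -0.23 to 0.061 (without db/db 3) and was at 0.04 without BKS 2. For the other turns the cause was not tested.

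Equal replicate numbers were not taken as pairs: correlations of same-numbered deviations were 0.03, 0.17, -0.07 and 0.13, and 2 of the 4 db/db arrays correlated best with their own number. With the replicate block 2 members were higher (Psma6 and Psmd13). The number of arrays limits which differences could pass.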
